A study of Mus musculus with 6 samples.

Results

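Matrix metalloproteinases (MMPs), the ADAM and ADAMTS metalloproteinases and the tissue inhibitors of metalloproteinases (TIMPs) were followed in horizontal basal cells (HBCs), the keratin-positive reserve stem cells at the base of the olfactory epithelium. Members were chosen by gene symbol alone, as every row of the deposited expression table with a symbol that begins with Mmp, Timp, Adamts or Adam and a number. This gave 82 of 44519 rows, for 79 symbols, of which 32 rows were expressed highly enough to be tested. Another 36 rows were too low in most libraries, and 14 were listed at 0 in every library.

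The mRNA of HBCs, sorted by GFP out of olfactory neuroepithelium, was sequenced in bulk. TNF libraries, replicates 1, 3 and 4, came from mice that carry Cyp2g1-rtTA and TRE-TNF beside Krt17-EGFP and had doxycycline for 6 weeks, in which the Cyp2g1 promoter, active in sustentacular cells, drives the activator that turns on tumor necrosis factor (TNF). Control libraries, replicates 1, 2 and 4, came from mice with Krt17-EGFP alone that are labelled as given no doxycycline. All mice of both groups carried the Krt17-EGFP reporter used for the sort, and the labels give no age. Transgenes, doxycycline and TNF differ together between the groups and cannot be told apart, and nothing says whether a library came from 1 animal or several, so p-values measure the spread between these samples. The study compares HBCs of chronically inflamed and normal olfactory tissue.

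Metalloproteinases of these families hold a zinc ion in their active site and are made as inactive precursors. MMPs cut collagens, laminins and other matrix proteins, ADAMs sit in the cell membrane and cut the outer part off other membrane proteins, and ADAMTS enzymes are secreted and cut proteoglycans and procollagens. TIMPs bind the active site and block it. In epithelia the balance between enzymes and inhibitors is known to govern basement membrane turnover and the release of growth factors and cytokines, TNF among them.

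Expression was given as FPKM, fragments scaled to transcript length and to the mapped total of the library, so read depth is unknown. FPKM summed to 688190 to 838417 in TNF libraries and to 769766 to 837515 in control libraries. All 15 HBC markers, Krt5 and Trp63 among them, were above 0 in every library. Their summed FPKM was 4724 to 7500 in TNF libraries and 2544, 3183 and 776 in control replicates 1, 2 and 4. Krt14 and Krt17 share 1 merged row, which held most of these sums. It was at 3645 to 5651 FPKM in TNF libraries and at 1768, 2265 and 402 FPKM in control replicates 1, 2 and 4. Markers of other cells were present too. The sum of 12 olfactory neuron markers was 37.9 to 974 FPKM in TNF libraries and 3730 to 7609 FPKM in control libraries. TNF replicate 1 stood apart in markers of stromal and vascular cells. Its sum over 10 fibroblast markers was 43.2 FPKM, with Dpt and Mfap5 at 0, against 1075 and 1544 FPKM in TNF replicates 3 and 4 and 138 to 527 FPKM in control libraries. Over 10 endothelial markers the sum was 3.99 FPKM in TNF replicate 1, with Kdr at 0, 198 and 281 FPKM across TNF replicates 3 and 4 and 56.5 to 110 FPKM in control libraries, where the highest value is that of control replicate 4. Of 7 perivascular and smooth muscle markers Rgs5 alone held 1276 to 1395 FPKM in TNF libraries and 226 to 350 FPKM in control libraries. The other 6, Acta2 and Pdgfrb among them, summed to 8.06 FPKM in TNF replicate 1, to 159.5 and 238 FPKM in TNF replicates 3 and 4 and to 36.9 to 88.8 FPKM in control libraries. The Y-linked gene Eif2s3y had 0, 35.3 and 23.1 FPKM across TNF replicates 1, 3 and 4, against 58.75 to 72.5 FPKM in control libraries. Xist, made from the inactive X chromosome of females, was at 3.50, 0.560 and 2.33 FPKM across TNF replicates 1, 3 and 4 and at 0.0418 to 0.382 FPKM in control libraries, and the groups overlapped for neither gene. For these reasons TNF replicate 1 is given apart from TNF replicates 3 and 4 throughout. As Eif2s3y and Xist set the groups apart, any difference in sex between the groups cannot be told apart from TNF either.

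Of the 32 tested rows, 7 rose and 6 fell in TNF libraries (limma on log2(FPKM + 1), adjusted p below 0.05, n = 3 per group). Among all 15037 tested rows 38.0% were called, 10.9% higher and 27.2% lower. The inhibitor Timp1, the membrane protease Mmp14, the membrane-bound Adam8 and Adam9, and the secreted Mmp3, Mmp28 and Adamts7 were the rows that rose. Mmp16 in both of its rows, Mmp24, Adam19, Adam22 and Adam23 fell. A row was tested if it reached 1 FPKM in 3 or more libraries. Mmp24, Adam19, Adam22, Adam23 and the lower of the Mmp16 rows passed this filter only through control libraries, and Mmp3 only through TNF libraries. The filter thus fixed their direction and lack of overlap in advance. With no filter the rows that fell kept their calls and Mmp3 lost its own (adjusted p = 0.0622, limma). Without TNF replicate 1, 16 rows rose and 6 fell, beside 14.7% and 32.9% of all rows (47.6% in either direction). With control replicate 4, the control with the lowest HBC marker sum, left out as well, 20 rose and 7 fell, beside 18.9% and 39.7% (58.6% in either direction). The median log2 change of the 32 rows was 0.63, against −0.22 over all rows as deposited. After quantile normalization, which moved the median of all rows to 0.05, 12 rows were higher and 2 lower, beside 2658 and 2867 of all 15037. Scaled to the HBC markers, which moved that median to −1.39, 2 rows were higher and 8 lower, beside 256 and 8479 of all 15037. Of the 15 HBC markers 6 were themselves called higher and 0 lower with all libraries, so scaling to them also takes out their own rise. Fold changes of log2(FPKM + 1) understate the change of low genes.

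**Figure D1:**
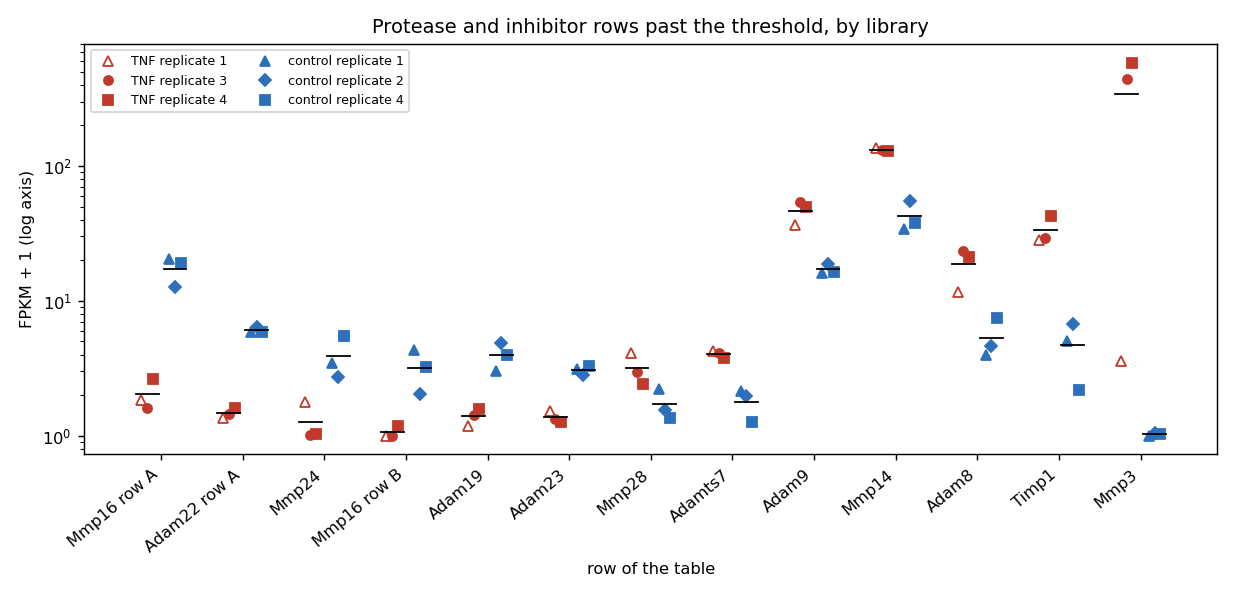
FPKM + 1 on a log axis for the 13 rows past the threshold in each library, with TNF libraries in red (replicate 1 as open triangles), control libraries in blue and a black line at the mean of each group. TNF and control libraries do not overlap in these rows. The filter fixed this in advance for Mmp3 and for the rows that fell other than the main Mmp16 row. Mmp3 in TNF replicate 1, at 2.55 FPKM, lies far below the 438 and 582 FPKM of TNF replicates 3 and 4.

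The libraries of the TNF group did not all stand alike. TNF replicates 3 and 4 lay above every control in 21 of the 32 rows, beside 25.0% of all tested rows, and TNF replicate 1 split these 21. In 8 of the 32 rows all 3 TNF libraries lay above every control library, a pattern held by 16.8% of all tested rows. They were Timp1, Mmp3, Mmp14, Mmp28, Adam8, Adam9, Adam17 and Adamts7. In another 8 rows TNF replicates 3 and 4 lay above every control while TNF replicate 1 lay below every control. This held for 3.37% of all tested rows, and the members were Mmp2, Mmp9, Mmp13, Timp2, Adamts1, Adamts2, Adamts4 and the merged Adam15 and Dcst1 row. Of the 21, 5 rows, for Mmp11, Mmp23, Timp3, Adam10 and Adamts10, had TNF replicates 3 and 4 above every control with TNF replicate 1 inside the control range, as did 4.86% of all tested rows. In 6 rows every TNF library lay below every control, beside 36.2% of all tested rows. The filter had fixed this in advance for all but the main Mmp16 row, as it had the place of Mmp3 above every control. In 0 member rows were TNF replicates 3 and 4 below every control and TNF replicate 1 not, against 11.2% of all tested rows.

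**Figure D2:**
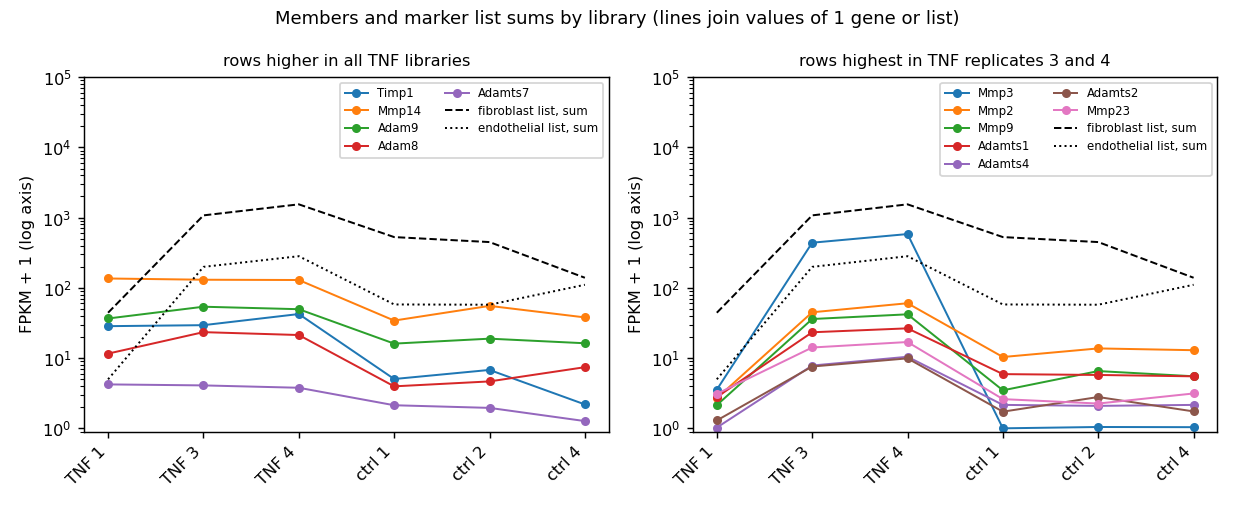
FPKM + 1 on a log axis in the 6 libraries for 5 members that were higher in all TNF libraries (left) and 7 that were highest in TNF replicates 3 and 4 (right, Mmp3 among them), with the summed FPKM of the fibroblast (dashed) and endothelial (dotted) marker lists in black and lines that only join values of 1 gene or list. Mmp14 keeps 128 to 135 FPKM in all TNF libraries, whereas Mmp2 is at 1.69 FPKM in TNF replicate 1, where the fibroblast sum is 43.2 FPKM.

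Among the inhibitors, Timp1, a TIMP known to be induced by inflammatory cytokines, was the one that passed the test. Timp1 (chromosome X, 20870166 to 20874735, mm10) was at 27.5, 28.4 and 41.4 FPKM across TNF replicates 1, 3 and 4 and at 4.03, 5.78 and 1.19 FPKM in control replicates 1, 2 and 4. The groups did not overlap, and TNF replicate 1 was as high as TNF replicate 3. The means were 32.4 ± 7.77 and 3.67 ± 2.32 FPKM (SD, n = 3 each), a log2 change of 2.96 ± 0.43 (SE, adjusted p = 0.00260, limma). Timp1 kept its call when any library was left out and under each scaling.

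Timp2, which in complex with Mmp14 takes part in the activation of the Mmp2 precursor, was at 27.7, 108 and 125 FPKM across TNF replicates 1, 3 and 4. In control libraries it held 65.9, 67.5 and 65.2 FPKM. TNF replicates 3 and 4 lay above and TNF replicate 1 below these closely spaced controls, and the log2 change was 0.13 ± 0.54 (adjusted p = 0.875, limma). Without TNF replicate 1 it was 0.80 ± 0.13 (adjusted p = 0.00470). Timp3, the inhibitor that binds to the matrix and also blocks Adam17, was at 89.4, 159 and 129.8 FPKM in TNF libraries and at 99.4, 123 and 40.03 FPKM in control libraries. Its groups overlapped, it did not pass (log2 change 0.63 ± 0.44, adjusted p = 0.303, limma), and its exons overlap those of Syn3. Timp4, at 0.724 to 1.17 FPKM in TNF libraries and 0.317 to 0.602 FPKM in control libraries, was too low to be tested and overlaps Syn2.

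Among membrane-type MMPs 1 of 7 tested rows rose and 3 fell. Mmp14 (chromosome 14, 54431612 to 54445364), which cuts fibrillar collagen at the cell surface and activates the Mmp2 precursor, was at 135, 129.5 and 128 FPKM across TNF replicates 1, 3 and 4. Control replicates 1, 2 and 4 held 33.2, 54.4 and 36.9 FPKM. The 3 TNF libraries were nearly equal and all above the controls, with means of 131 ± 3.51 and 41.5 ± 11.3 FPKM and a log2 change of 1.67 ± 0.21 (adjusted p = 0.00151, limma). Scaled to the HBC markers the change was 0.37 and the call was lost (adjusted p = 0.522).

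Mmp16 (chromosome 4, 17852893 to 18119145), a membrane-type MMP known mainly from brain, had 2 rows under its symbol, and what sets them apart is not stated, so the split between them is uncertain. Its main row was at 0.839, 0.606 and 1.65 FPKM across TNF replicates 1, 3 and 4 and at 19.3, 11.6 and 18.0 FPKM in control replicates 1, 2 and 4. The TNF libraries were all far below the controls, with a log2 change of −3.09 ± 0.30 (adjusted p = 0.000699, limma). The minor row was at 0, 0 and 0.179 FPKM in TNF libraries and at 3.29, 1.04 and 2.24 FPKM in control libraries (log2 change −1.53 ± 0.29, adjusted p = 0.00654, limma). Mmp24, another membrane-type MMP of neurons, fell by 1.60 ± 0.34 on the log2 scale (adjusted p = 0.0108, limma), with 0.770, 0.00910 and 0.0324 FPKM across TNF replicates 1, 3 and 4 and 2.44, 1.74 and 4.48 FPKM in control libraries. The olfactory neuron marker sum was 974, 44.9 and 37.9 FPKM across TNF replicates 1, 3 and 4. TNF replicate 1 was the highest TNF library for Mmp24, whereas TNF replicate 4 was the highest for each Mmp16 row. The part of neuron content in these falls was not tested. In bulk samples, fewer cells of a type and less RNA per cell cannot be told apart. After quantile normalization the calls of Mmp24 and of the minor Mmp16 row were lost (adjusted p = 0.0905 and 0.108). Exons of Mmp24 overlap those of BC029722.

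Mmp15 and Mmp17 overlapped between the groups and did not pass. Mmp15, a membrane-type MMP close in kind to Mmp14, was at 8.42 to 9.82 FPKM in TNF libraries and 6.94 to 13.6 FPKM in control libraries (log2 change 0.00 ± 0.27, adjusted p = 0.993, limma). Mmp17, which is held by a lipid anchor, was at 0.863 ± 0.652 FPKM in TNF libraries and 1.32 ± 0.779 FPKM in control libraries. Mmp23, anchored through its propeptide, was at 2.097, 13.1 and 15.9 FPKM across TNF replicates 1, 3 and 4 and at 1.60, 1.25 and 2.14 FPKM in control libraries. It missed the threshold with all libraries (log2 change 1.78 ± 0.63, adjusted p = 0.0667, limma) and passed without TNF replicate 1 (2.55 ± 0.24, adjusted p = 0.000941). Mmp25, untested, was listed at 0 in each TNF library and at 0.297 to 0.368 FPKM in control libraries.

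Secreted MMPs held the largest difference and the widest spread within the TNF group. Of 16 rows 7 were tested, 2 rose and 0 fell, while 3 rose without TNF replicate 1. Mmp3 (chromosome 9, 7445822 to 7455975), a stromelysin that cuts laminin, proteoglycans and other MMP precursors, was at 2.55, 438 and 582 FPKM across TNF replicates 1, 3 and 4. It was nearly absent from control replicates 1, 2 and 4, with 0, 0.0446 and 0.0384 FPKM. Every TNF library exceeded every control, which the filter fixed in advance, yet TNF replicate 1 was far from the other TNF libraries. The log2 change of 6.56 ± 1.85 passed narrowly (adjusted p = 0.0307, limma). That call ended with the omission of each single library except TNF replicate 1 (adjusted p = 0.0777 to 0.0956), and the change was 8.94 ± 0.20 without TNF replicate 1 (adjusted p = 7.27e-05). Fibroblast marker sums were 43.2, 1075 and 1544 FPKM across TNF replicates 1, 3 and 4 and 138 to 527 FPKM in control libraries. Endothelial marker sums were 3.99, 198 and 281 FPKM in the same TNF libraries and 56.5 to 110 FPKM in control libraries. The part of stromal cells in the Mmp3 level was not tested.

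The gelatinases Mmp2 and Mmp9, which cut basement membrane collagen, showed the same split. Mmp2 was at 1.69, 43.9 and 59.4 FPKM across TNF replicates 1, 3 and 4 and at 9.36, 12.7 and 11.95 FPKM in control libraries. Mmp9 was at 1.14, 35.0 and 41.0 FPKM in TNF libraries and at 2.48, 5.53 and 4.51 FPKM in control libraries. For both genes TNF replicate 1 was the lowest of all 6 libraries and TNF replicates 3 and 4 the highest. Neither passed with all libraries (log2 change 0.66 ± 1.12, adjusted p = 0.677 for Mmp2, and 1.56 ± 1.11, adjusted p = 0.310 for Mmp9, limma). Without TNF replicate 1 the changes were 2.09 ± 0.21 and 2.96 ± 0.31 (adjusted p = 0.00126 and 0.00132). Summed neutrophil markers, the cells best known for stored Mmp9, were 8.36 to 20.1 FPKM in TNF libraries and 84.1 to 199 FPKM in control libraries. Of these sums Il1b alone held 4.69 to 13.7 FPKM in TNF libraries and 50.3 to 134 FPKM in control libraries. The part of neutrophils in the Mmp9 level was not tested.

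Collagenase 3, encoded by Mmp13, was at 0.430, 37.6 and 29.0 FPKM across TNF replicates 1, 3 and 4 and at 21.7, 15.5 and 2.17 FPKM in control replicates 1, 2 and 4. The control libraries themselves differed, with control replicate 4 lowest, and the change did not pass (log2 change 0.16 ± 1.37, adjusted p = 0.939, limma). Mmp12, the macrophage elastase, was at 1.70, 9.93 and 12.9 FPKM in TNF libraries and at 3.70, 3.61 and 14.1 FPKM in control libraries. Its high control value was that of control replicate 4. Among 12 macrophage and myeloid markers Cd14 and Lyz2 held most of the RNA in TNF libraries, and Cd14 was the one called higher, while 7 were called lower, the complement genes C1qa, C1qb and C1qc among them. Without Cd14 and Lyz2 the other 10 summed to 41.7 to 106 FPKM in TNF libraries and to 178, 196 and 1233 FPKM in control replicates 1, 2 and 4. Their part in the Mmp12 level was not tested. Mmp28, an MMP of epidermis and other epithelia, rose by 0.89 ± 0.28 on the log2 scale at low levels (adjusted p = 0.0452, limma), with 3.12, 1.98 and 1.41 FPKM across TNF replicates 1, 3 and 4 and 1.21, 0.558 and 0.361 FPKM in control libraries. Unlike most secreted MMPs it was highest in TNF replicate 1, but the call was lost when any library other than control replicate 1 was left out (adjusted p = 0.0514 to 0.116) and after scaling to the HBC markers (0.21, adjusted p = 0.643), and its exons overlap those of 1700020L24Rik. Mmp11, another stromelysin, was at 3.20 ± 1.29 FPKM in TNF libraries and 1.95 ± 0.781 FPKM in control libraries and did not pass (adjusted p = 0.283, limma).

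**Figure D3:**
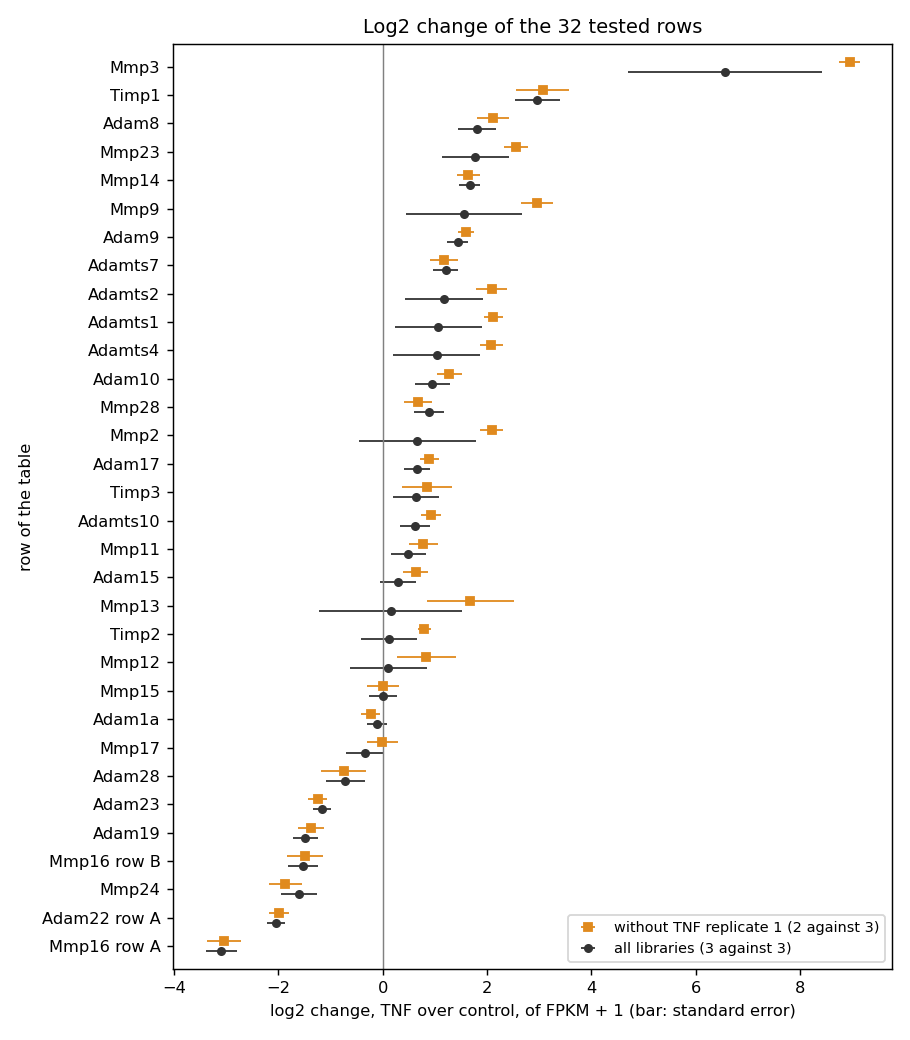
Log2 change of TNF over control on the FPKM + 1 scale for the 32 tested rows, with all libraries (black circles) and without TNF replicate 1 (orange squares), where bars are standard errors. Mmp2 is at 2.09 without TNF replicate 1 and at 0.66 with all libraries, while Timp1, Mmp14 and Adam9 and the rows that fell stay close to their first value.

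A run of 10 MMP genes lies side by side within 427.1 kb of chromosome 9 (7272514 to 7699585, mm10), and Mmp3 was the highest of them in each TNF library. In TNF replicates 3 and 4 Mmp10, a stromelysin 56.5 kb from the start of Mmp3, was at 2.21 and 3.01 FPKM, and it was listed at 0 in TNF replicate 1 and in the 3 control libraries. Mmp1a, 18.3 kb away and related to the human interstitial collagenase, reached only 0.111 and 0.200 FPKM in TNF replicates 3 and 4 and was at 0 elsewhere. Its near copy Mmp1b reached 0.185 and 0.167 FPKM in the same libraries, and reads of this pair may be hard to assign. Exons of Mmp1b also overlap those of Mmp12. Matrilysin, encoded by Mmp7, was at 0.0826, 0.225 and 0.336 FPKM across TNF replicates 1, 3 and 4 and at 0 in the controls. The neutrophil collagenase Mmp8, Mmp20 of tooth enamel and Mmp27 stayed below 0.6 FPKM in each library. TNF replicate 1 listed 6 of the 10 genes at 0, TNF replicates 3 and 4 listed 1 and 0, and control libraries 6 or 7.

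**Figure D4:**
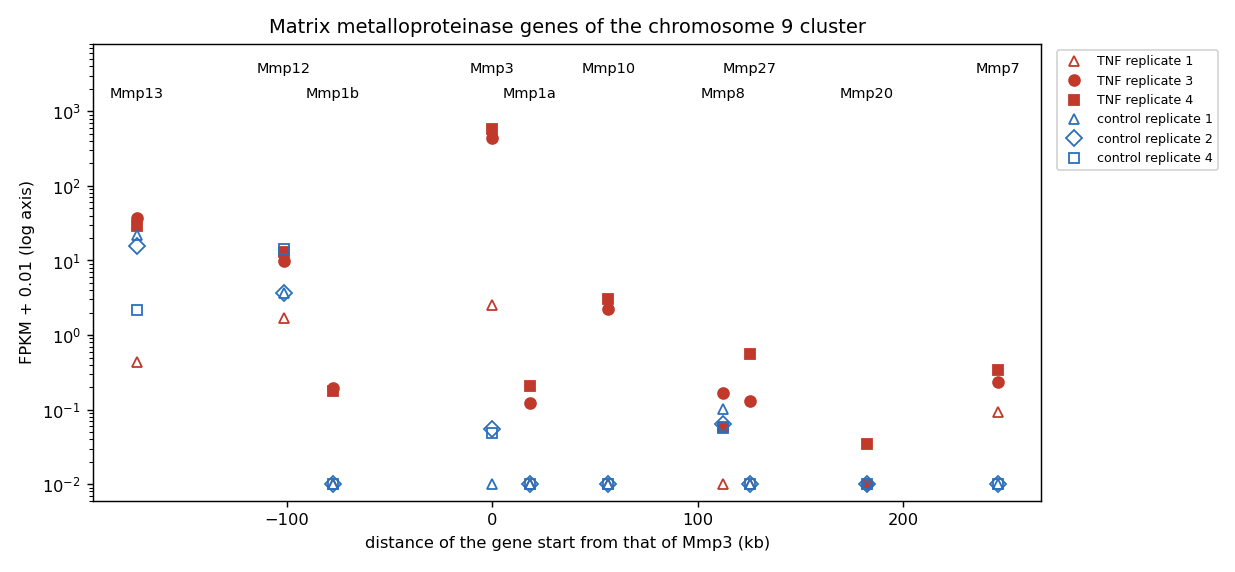
FPKM + 0.01 on a log axis for the 10 MMP genes of the chromosome 9 cluster, placed by the distance of their start from that of Mmp3 in kb, with TNF libraries in red (replicate 1 open) and control libraries as open blue symbols. Mmp3 reaches 582 FPKM and Mmp10 3.01 FPKM in TNF replicate 4, and points at 0.01 are values of 0.

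Promoter sequences were set side by side because neighbours in this cluster differ so widely in level. RefSeq promoter windows (GRCm38.p6, 250 bases before to 50 after the start of transcription) were found for 49 of the 79 symbols, in 54 windows. The letters TGAGTCA, on either strand, which the factor AP-1 is known to bind, were in 10 member windows (18.5%) and in 5.19% of 32544 promoter windows of that length. Of these, 7 belonged to the 10 cluster genes, and outside the cluster 7.14% of 42 windows held them. TATAAA on either strand was in 25.9% of member windows and 13.6% of all windows, and in 9 of the 10 cluster genes. The NF-kB consensus was in 5.56% of member windows and 4.53% of all, and GGGCGG on either strand in 42.6% and 35.9%. The last 120 bases before the start are given for 6 cluster genes that hold both TGAGTCA and TATAAA there, and for Timp1 and Mmp14, which were higher in each TNF library than in every control and hold neither. In the sequences, capitals mark these letters on the strand shown or as their reverse complement. In Mmp14 a pair of adjoining GGGCGG matches runs together.
Mmp13, chr9:7272394-7272513, plus strand: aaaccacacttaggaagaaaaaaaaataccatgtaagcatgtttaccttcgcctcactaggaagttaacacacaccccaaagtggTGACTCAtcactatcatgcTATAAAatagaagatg
Mmp1b, chr9:7388027-7388146, minus strand: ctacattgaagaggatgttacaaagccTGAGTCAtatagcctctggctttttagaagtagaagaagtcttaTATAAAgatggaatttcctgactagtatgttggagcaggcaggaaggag
Mmp3, chr9:7445702-7445821, plus strand: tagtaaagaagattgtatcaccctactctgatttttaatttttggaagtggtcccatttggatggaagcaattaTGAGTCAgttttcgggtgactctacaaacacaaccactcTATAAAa
Mmp1a, chr9:7464021-7464140, plus strand: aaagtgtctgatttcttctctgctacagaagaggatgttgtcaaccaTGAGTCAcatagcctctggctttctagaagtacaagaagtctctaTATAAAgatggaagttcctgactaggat
Mmp10, chr9:7502222-7502341, plus strand: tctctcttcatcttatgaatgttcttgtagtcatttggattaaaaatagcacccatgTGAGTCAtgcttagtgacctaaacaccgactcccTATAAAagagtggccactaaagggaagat
Mmp7, chr9:7691970-7692089, plus strand: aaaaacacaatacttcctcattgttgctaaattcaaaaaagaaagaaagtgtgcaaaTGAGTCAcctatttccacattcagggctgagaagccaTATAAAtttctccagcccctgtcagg
Timp1, chrX:20870046-20870165, plus strand: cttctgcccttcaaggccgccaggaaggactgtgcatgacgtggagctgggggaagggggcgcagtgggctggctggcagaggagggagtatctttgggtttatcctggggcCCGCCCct
Mmp14, chr14:54431478-54431597, plus strand: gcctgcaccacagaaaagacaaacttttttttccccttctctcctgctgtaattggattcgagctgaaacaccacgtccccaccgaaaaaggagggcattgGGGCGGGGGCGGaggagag
TGAGTCA began 46 bases before the start of Mmp3, 63 before that of Mmp10 and 73 before that of Mmp1a, genes that reached 582, 3.01 and 0.200 FPKM in TNF replicate 4. The same letters thus stood near the start of genes of very different level, and a match is no evidence of binding.

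Among the ADAMs with protease activity, 2 of 7 tested rows rose and 1 fell. Adam9 (chromosome 8, 24949611 to 25016927), a sheddase found in many epithelia, was at 35.6, 52.9 and 48.7 FPKM across TNF replicates 1, 3 and 4. Control replicates 1, 2 and 4 were at 15.1, 17.9 and 15.3 FPKM. All TNF libraries lay well above the narrow control range, with a log2 change of 1.44 ± 0.20 (adjusted p = 0.00206, limma) that was 0.17 after scaling to the HBC markers (adjusted p = 0.783). Adam8, a sheddase best known from leukocytes, shares a merged row with 6430531B16Rik, so its level is uncertain. That row was at 10.6, 22.4 and 20.3 FPKM in TNF libraries and at 2.96, 3.65 and 6.42 FPKM in control libraries, a log2 change of 1.80 ± 0.36 (adjusted p = 0.00903, limma). The call was lost after scaling to the HBC markers (0.61, adjusted p = 0.401). The part of myeloid cells, whose markers are given beside Mmp12, in the Adam8 level was not tested.

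Adam17, the convertase that releases TNF from the cell surface, was at 16.5, 28.5 and 26.7 FPKM across TNF replicates 1, 3 and 4 and at 14.7, 16.5 and 12.2 FPKM in control libraries. TNF replicate 1 and control replicate 2 were nearly equal. Adam17 missed the threshold (log2 change 0.66 ± 0.25, adjusted p = 0.0805, limma), passed without TNF replicate 1 (0.90 ± 0.18, adjusted p = 0.0103) and after median-of-ratios scaling (adjusted p = 0.0399), and its exons overlap those of Iah1. Adam10, the sheddase that cuts Notch and cadherins, was at 23.7, 45.7 and 49.7 FPKM in TNF libraries and at 20.0, 24.0 and 14.3 FPKM in control libraries. It too missed the threshold (0.95 ± 0.33, adjusted p = 0.0593, limma) and passed without TNF replicate 1 (1.28 ± 0.23, adjusted p = 0.00743) and after median-of-ratios scaling (adjusted p = 0.0355).

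Adam19, which can cut neuregulin precursors, fell, with 0.190, 0.431 and 0.567 FPKM across TNF replicates 1, 3 and 4 and 2.03, 3.84 and 2.93 FPKM in control libraries (log2 change −1.48 ± 0.23, adjusted p = 0.00336, limma). This call was lost after quantile normalization (adjusted p = 0.0586). The merged row of Adam28 and Adamdec1, both known from lymphoid and myeloid cells, was the highest ADAM row, at 96.2, 88.3 and 90.2 FPKM in TNF libraries and 207, 208 and 79.5 FPKM in control replicates 1, 2 and 4. Control replicate 4 lay below every TNF library, so the groups overlapped (log2 change −0.71 ± 0.38, adjusted p = 0.183, limma). Without control replicate 4 the change was −1.17 and passed (adjusted p = 0.00338). Lymphocyte markers were highest in control replicate 4 too, with sums of 77.4 FPKM for T and NK cells and 292 FPKM for B and plasma cells, against 6.54 to 9.36 and 144 to 202 FPKM in TNF libraries. The merged Adam15 and Dcst1 row was at 11.1, 22.7 and 25.1 FPKM in TNF libraries and 12.4, 13.5 and 20.2 FPKM in control libraries and did not pass (adjusted p = 0.547, limma). Adam12 and Adam33 stayed below 1 FPKM and were not tested.

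Adam11, Adam22 and Adam23 lack protease activity and act as neuronal surface receptors, Adam22 and Adam23 for the LGI proteins of synapses. Adam22 was at 0.357, 0.450 and 0.609 FPKM across TNF replicates 1, 3 and 4 and at 4.86, 5.36 and 4.88 FPKM in control libraries (log2 change −2.04 ± 0.17, adjusted p = 0.000523, limma), while a second row of the gene was at 0 throughout. Adam23 was at 0.535, 0.325 and 0.261 FPKM in TNF libraries and at 2.14, 1.80 and 2.28 FPKM in control libraries (log2 change −1.16 ± 0.17, adjusted p = 0.00248, limma). Within each group the libraries were close. The groups did not overlap for either gene, which the filter fixed in advance, and Adam23 was not called after quantile normalization (adjusted p = 0.101). All 12 olfactory neuron markers fell in the same libraries, with a median log2 change of −5.46, and the part of neuron content in the falls of Adam22 and Adam23 was not tested. Adam11, untested, was at 0.407 to 1.63 FPKM in TNF libraries and 0.160 to 0.225 FPKM in control libraries. Of 21 ADAM rows for genes best known from testis, epididymis and other reproductive tissue, 12 were at 0 in every library. One row was tested, the merged Adam1a and Mapkapk5 row, which was at 21.8 ± 3.48 FPKM in TNF libraries and 23.6 ± 3.51 FPKM in control libraries (adjusted p = 0.696, limma).

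**Figure D5:**
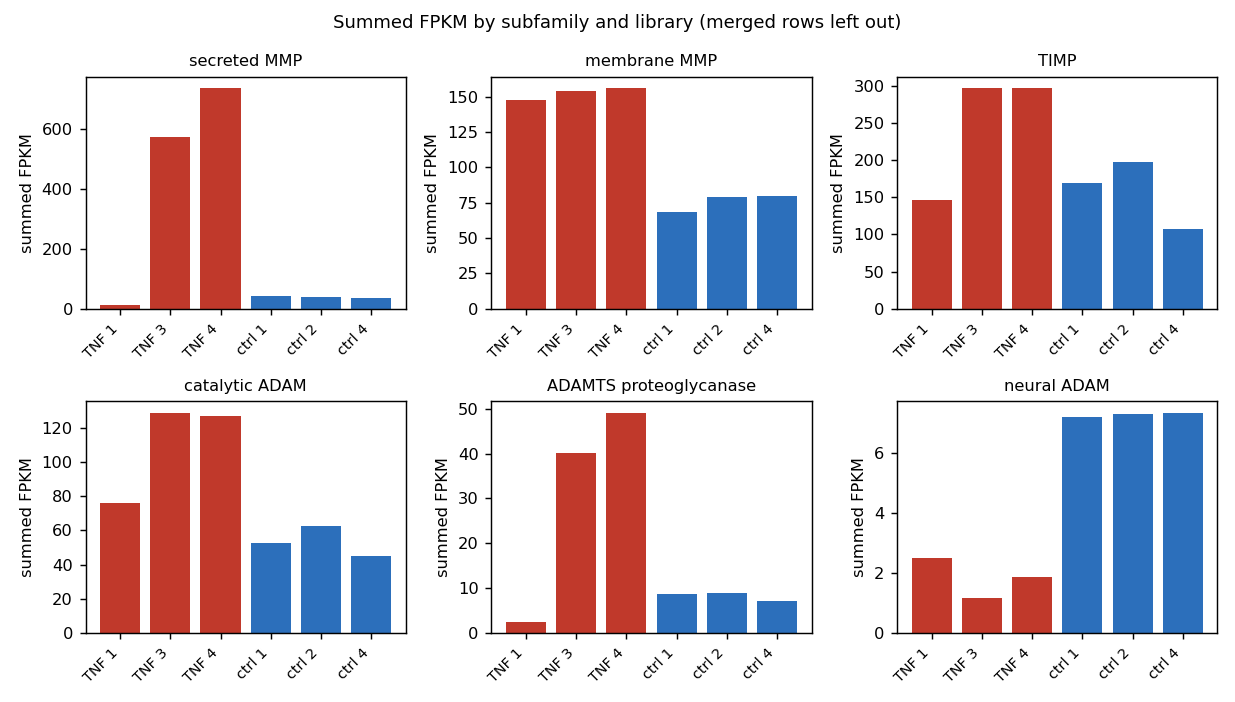
Summed FPKM of 6 subfamilies in each library (ctrl stands for control), with TNF libraries in red to the left of control libraries in blue, merged rows left out and linear axes that start at 0. Secreted MMPs sum to 12.6, 575 and 736 FPKM across TNF replicates 1, 3 and 4 and to 35.9 to 41.0 FPKM in control libraries, whereas membrane-type MMPs sum to 148 to 156 FPKM in all TNF libraries.

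Of the ADAMTS genes, 5 of 20 rows were tested and Adamts7 was the one that rose. Adamts7, which cuts cartilage oligomeric matrix protein, was at 3.22, 3.08 and 2.78 FPKM across TNF replicates 1, 3 and 4 and at 1.13, 0.954 and 0.268 FPKM in control libraries (log2 change 1.21 ± 0.24, adjusted p = 0.00848, limma). All 3 TNF libraries were alike, but the call was lost after scaling to the HBC markers (0.50, adjusted p = 0.256), and its exons overlap those of Tbc1d2b.

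The proteoglycanases behaved differently. Adamts1, which cuts versican and aggrecan, was at 1.79, 22.3 and 25.5 FPKM across TNF replicates 1, 3 and 4 and at 4.91, 4.75 and 4.50 FPKM in control libraries (log2 change 1.07 ± 0.83, adjusted p = 0.352, limma). The aggrecanase Adamts4, one of the members with an exon overlap and so of uncertain level, was at 0.0247, 6.83 and 9.44 FPKM in TNF libraries and at 1.16, 1.09 and 1.15 FPKM in control libraries (log2 change 1.04 ± 0.83, adjusted p = 0.365, limma). In both, TNF replicate 1 lay below and TNF replicates 3 and 4 above a narrow control range. Without TNF replicate 1 Adamts1 changed by 2.12 ± 0.18 and Adamts4 by 2.08 ± 0.21 (adjusted p = 0.000701 and 0.00126, limma). Adamts5, the other main aggrecanase, stayed below 0.7 FPKM in each library and was not tested. Adamts8 had too few libraries above 1 FPKM to be tested, at 0.167, 7.89 and 9.56 FPKM across TNF replicates 1, 3 and 4 and at 0.410 to 0.840 FPKM in control libraries.

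Adamts2, which trims the amino end of procollagens, was at 0.294, 6.58 and 8.91 FPKM across TNF replicates 1, 3 and 4 and at 0.726, 1.79 and 0.741 FPKM in control libraries (log2 change 1.18 ± 0.75, adjusted p = 0.262, limma). Without TNF replicate 1 its change was 2.09 ± 0.30 (adjusted p = 0.00330). Adamts10, which binds fibrillin, was at 1.71, 3.75 and 4.399 FPKM in TNF libraries and 1.504 to 1.82 FPKM in control libraries, and it passed without TNF replicate 1 (0.92 ± 0.19, adjusted p = 0.0112). Fibroblast markers give the setting of these values. Of 7 tested, 1 rose and 1, Pi16, fell with all libraries, and 4 rose and 1 fell without TNF replicate 1. Of 7 tested endothelial markers 0 rose with all libraries and 7 without TNF replicate 1. The part of stromal cells in the ADAMTS levels was not tested. The remaining 13 ADAMTS rows stayed at or below 2.01 FPKM in each library.

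Levels per length allow the summed RNA of inhibitors and MMPs to be set side by side. TIMPs summed to 146, 297 and 297 FPKM across TNF replicates 1, 3 and 4 and to 169.9, 197 and 107 FPKM in control replicates 1, 2 and 4. MMPs summed to 160.2, 729 and 892 FPKM in TNF libraries and to 109, 118 and 116 FPKM in control libraries. The ratio of the TIMP sum to the MMP sum was 0.909, 0.407 and 0.333 in TNF replicates 1, 3 and 4 and 1.56, 1.67 and 0.921 in control libraries. Each TNF library was below each control, by a narrow margin for TNF replicate 1 and control replicate 4. Mmp14 made up 84.2% of the MMP sum in TNF replicate 1, while Mmp3 made up 60.1% and 65.3% in TNF replicates 3 and 4. Timp1 was 9.58% to 18.9% of the TIMP sum in TNF libraries and 1.11% to 2.94% in control libraries.

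Genes that regulate these proteases mostly rose where they changed. Of 21 tested regulators 13 rose and 3 fell, with a median log2 change of 0.84. Without TNF replicate 1 the counts were 12 and 3. Among all tested rows 10.9% rose and 27.2% fell, with a median of −0.22. Without TNF replicate 1 these shares were 14.7% and 32.9%. Adamtsl4, a relative of the ADAMTS family without protease activity, rose to 5.44 ± 0.689 FPKM in TNF libraries, against 0.630 ± 0.188 FPKM in control libraries (log2 change 1.98 ± 0.19, adjusted p = 0.000743, limma). The endocytic receptor Lrp1, which clears MMPs and TIMPs, was at 9.24, 11.8 and 15.6 FPKM in TNF libraries and 1.92, 4.41 and 2.31 FPKM in control libraries (adjusted p = 0.00520, limma). Tspan17, one of the tetraspanins that escort Adam10, rose by 1.28 ± 0.18. The proprotein convertase Pcsk6 fell to 0.252 ± 0.122 FPKM in TNF libraries, against 3.89 ± 0.459 FPKM in control libraries (adjusted p = 0.000596, limma). Scaled to the HBC markers, Lrp1 and Tspan17 were no longer called (adjusted p = 0.255 and 0.921).

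Of 17 tested genes of the plasminogen system and related serine proteases 4 rose and 1 fell, beside 10.9% and 27.2% of all tested rows. Without TNF replicate 1, 7 rose, beside 14.7% of all tested rows. Spint1, the membrane inhibitor of the epithelial protease matriptase, was at 169.6, 131 and 119.5 FPKM in TNF libraries and 26.9, 27.3 and 19.2 FPKM in control libraries (log2 change 2.47 ± 0.21, adjusted p = 0.000523, limma). Matriptase itself, encoded by St14, rose to 87.4 ± 4.93 FPKM in TNF libraries, against 30.9 ± 9.80 FPKM in control libraries, a call lost after scaling to the HBC markers (adjusted p = 0.696). The plasmin-binding Anxa2 rose by 1.04 ± 0.32 (adjusted p = 0.0411, limma), though it was at −0.27 after scaling to the HBC markers and its call was also lost after quantile normalization (adjusted p = 0.0567), with no filter on low values (adjusted p = 0.0725) and without TNF replicate 3 or 4 or control replicate 1. Serpine2, which inhibits thrombin and plasminogen activators, fell to 165.8 ± 24.9 FPKM in TNF libraries, against 501.5 ± 142 FPKM in control libraries (adjusted p = 0.00393, limma). Plau, the urokinase gene, stayed below 0.5 FPKM in each library.

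Other related metalloproteinases and their helpers changed in both directions. Of 8 tested, the shared Adam28 and Adamdec1 row among them, 1 rose and 2 fell, beside 10.9% and 27.2% of all tested rows. Without TNF replicate 1, 4 rose, beside 14.7% of all tested rows. Bmp1, which trims the carboxyl end of procollagens, rose to 16.9 ± 4.55 FPKM in TNF libraries, against 4.54 ± 0.842 FPKM in control libraries, and was not called after scaling to the HBC markers (adjusted p = 0.392). Its enhancer Pcolce2 was at 23.5, 7.12 and 5.85 FPKM in TNF libraries and 85.7, 86.2 and 96.2 FPKM in control libraries (log2 change −3.03 ± 0.47, adjusted p = 0.00313, limma). Pappa, a protease of IGF binding proteins, fell by 2.16 ± 0.20 on the log2 scale.

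Substrates were read from lists of shed membrane proteins and matrix proteins. Of 29 tested shed proteins 10 rose and 3 fell, beside 10.9% and 27.2% of all tested rows, with a median log2 change of 0.95. Without TNF replicate 1, 12 rose and 3 fell, beside 14.7% and 32.9% of all tested rows. Tnf, whose transgene and endogenous transcripts cannot be told apart, is among the 10 that rose with all libraries. Cd44, a hyaluronan receptor cut by Adam10 and Mmp14, rose to 22.2 ± 2.65 FPKM in TNF libraries, against 5.02 ± 1.04 FPKM in control libraries (adjusted p = 0.000925, limma). The membrane chemokine Cxcl16, an Adam10 substrate, rose to 252 ± 19.8 FPKM in TNF libraries, against 61.9 ± 23.2 FPKM in control libraries (adjusted p = 0.00162, limma). Both calls were lost after scaling to the HBC markers (adjusted p = 0.192 and 0.185). N-cadherin, encoded by Cdh2 and cut by Adam10, fell by 1.93 ± 0.25 and the neuregulin gene Nrg1 by 1.96 ± 0.26 on the log2 scale.

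Of 29 tested matrix genes 10 rose and 2 fell, beside 10.9% and 27.2% of all tested rows, with a median log2 change of 1.02. Without TNF replicate 1, 18 rose and 2 fell, beside 14.7% and 32.9% of all tested rows. The list holds 4 of the fibroblast markers, Dcn, Col1a1, Col1a2 and Col3a1, of which 0 rose with all libraries and 2 without TNF replicate 1, and 3 of the HBC markers, of which 2 rose in either fit. The fibroblast marker sum was 43.2 FPKM in TNF replicate 1, 1075 and 1544 FPKM in the other TNF libraries and 138 to 527 FPKM in control libraries. The part of fibroblast content in these counts was not tested. The laminin chain gene Lamb2 rose by 1.47 ± 0.25 and the fibulin gene Fbln1 by 1.65 ± 0.26, and neither was called after scaling to the HBC markers (adjusted p = 0.739 and 0.482). Vtn, which encodes vitronectin, fell to 1.09 ± 0.850 FPKM in TNF libraries, against 22.9 ± 17.7 FPKM in control libraries (adjusted p = 0.00424, limma).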

How the data were processed

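Cells were sorted into Trizol LS, and purified RNA was amplified with a SMARTer kit for Nextera libraries, per the labels' protocols. The submitters' processing notes name TopHat2 2.1.1, Cuffdiff 2.2.1 and mm10. No settings, strand handling or annotation are stated there. The authors deposited 1 table with an FPKM value per row and library. Although its title speaks of raw counts, 99.98% of its non-zero values are not whole (tolerance 1e-09), which bars a count model. Low FPKM values place the worth of a single fragment between 0.871 and 1.08 of that in control replicate 1.

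Every row that reached 1 FPKM in 3 or more libraries was fitted with limma 3.58.1 in R 4.3.3 (intensity trend, log2(FPKM + 1), 2 groups, no covariate), and p-values were corrected over all 15037 rows (Benjamini-Hochberg, threshold 0.05). When a library was left out, the same rows were tested. Of the member rows 4 were merged with another gene, 3 symbols had 2 rows each and 20 rows belong to genes whose exons overlap another gene in GENCODE M21 (GRCm38), which also gave gene positions, counted from 1. Gene lists were read by counts and medians, with no set test. Promoter sequences are from RefSeq (GRCm38.p6).

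The members, gene lists and rules were chosen with earlier results of these data known. Genes named were members past the threshold, the 12 members of highest mean, 15 fixed members and up to 4 called genes of smallest p per list. Adamts2, Adamts8, Adamts10, Adam11, Adam12, Adam15, Adam33, Mmp10, Mmp11, Mmp12, Mmp15, Mmp17, Mmp23, Mmp25, Plau, Tnf, Eif2s3y, Xist and the other cluster genes were named after their values were seen. A gene that the rule took from the matrix list is not reported here.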

Additional observations from a re-analysis of the deposited data

How the results depend on the processing

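The members called higher numbered 7 and those called lower 6, beside 1635 and 4083 of all 15037 rows. Leaving out 1 library gave 5 to 16 higher and 6 to 7 lower, beside 938 to 2205 and 2802 to 4946 of all rows. Leaving out control replicate 4 and TNF replicate 1 together gave 20 higher, beside 2835. A filter of 5 FPKM, which left 17 rows tested, gave 4 higher and 1 lower, beside 1272 and 2655 of 10724 rows. Quantile normalization gave 12 higher and 2 lower, beside 2658 and 2867 of 15037. HBC marker scaling gave 2 higher and 8 lower, beside 256 and 8479. The replicate number as a block gave 4 higher and 5 lower, beside 744 and 2246. Replicates 1 and 4 occur in both groups, and their deviations correlated at −0.0638 and −0.0874. Libraries of different number correlated at −0.146 to 0.179, so equal numbers did not stand out. With so few libraries per group, these correlations cannot decide whether equal numbers pair the libraries. Of 13 called rows 13 kept their call after median-of-ratios scaling and with a robust variance estimate, 12 with a pseudocount of 0.1, 11 with no filter, 9 after quantile normalization, 9 with the block and 8 scaled to the HBC markers. Anxa2 was at −0.27 after that scaling, and the cause was not tested. Of the 13 called rows, Adam8, Adam23, Adamts7 and Mmp28 lost their calls with the block. Mmp3 and Mmp28 lost their calls most often. Read depth is unknown, so the precision of rows near or below 1 FPKM cannot be given.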
